A study of Homo sapiens with 18 samples.

Results

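The 49 genes described here code for the machinery of DNA replication and for proteins of S phase, the part of the cell cycle in which the genome is copied. They were taken by gene symbol from the 3 tables of the series, 1 for each cell line. All 49 were measured in each, of 16001 genes tested for BL-41, 15365 for Namalwa and 16787 for Jiyoye. The choice was made with earlier results of these data known, so member shares set beside those of other genes are a description. They fall into 9 roles, from the proteins that mark replication origins to those that rebuild chromatin behind the fork.

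Messenger RNA was profiled in 3 established lines of Burkitt lymphoma (BL), a B cell cancer in which the MYC gene is translocated. The 6 groups were BL-41 with FOXO3 shRNA, BL-41 with scrambled shRNA, Namalwa with FOXO3 shRNA, Namalwa with scrambled shRNA, Jiyoye with FOXO3 shRNA and Jiyoye with scrambled shRNA, of 3 libraries each and 18 in all. In every group the short hairpin RNA (shRNA) came from the lentivirus pRSI12-U6-shUbiC-TagRFP, infected cells were sorted on day 4, and libraries were made from oligo-dT enriched RNA. The comparison asks what happens to the transcripts of a line when FOXO3, a forkhead transcription factor, is knocked down, which the series' title describes as toxic for these lines. How many FOXO3 hairpins were used is not given in the sources used here. The labels speak of triplicates and do not say whether these were separate cultures; the tests thus know only how far these libraries varied, and that variation may be technical. No value per library is used here: the authors' deposited table of each line gives 1 normalized value per arm, a moderated log2 fold change (FOXO3 shRNA divided by scrambled shRNA) and the DESeq2 p-values. Each standard error (SE) was computed back from that fold change and its p. Whether the authors' p is that of the moderated fold change could not be checked, and every SE, 95% interval and test between lines given here assumes it. A gene is said to have risen or fallen where its adjusted p is under 0.05.

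Replication begins when the origin recognition complex, CDC6 and CDT1 load the ring-shaped MCM helicase onto DNA in G1. In S phase the kinase CDC7 with DBF4, and then CDC45 and the GINS complex, turn the ring into a moving helicase. DNA polymerases follow with a sliding clamp, RPA covers the unwound strand, and nucleotide enzymes such as ribonucleotide reductase supply the building blocks. Many of these genes are transcribed together by E2F factors as cells enter S phase, and dividing cells, such as those of Burkitt lymphoma, use them in each round of the cycle.

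FOXO3 itself (gene ID 2309, chr6:108559825-108684774; positions are those of GRCh38.p14) had 545 with FOXO3 shRNA, against 945 with scrambled shRNA in the authors' deposited table for BL-41 (log2 fold change -0.79, SE 0.14, adjusted p = 3.15e-07). In Namalwa the authors' deposited table gave it 398 with FOXO3 shRNA, against 851 with scrambled shRNA (log2 fold change -1.09, SE 0.16, adjusted p = 2.49e-09). In Jiyoye it had 384 with FOXO3 shRNA, against 471 with scrambled shRNA in the authors' deposited table (log2 fold change -0.30, SE 0.15, adjusted p = 0.187, 95% interval -0.59 to 0.00), so a fall of the targeted gene passed the test in BL-41 and Namalwa and was not shown in the Jiyoye libraries labelled FOXO3 shRNA. Summed over all genes, the deposited arm values came to 18459745 with FOXO3 shRNA and 17780991 with scrambled shRNA in BL-41, to 18341696 with FOXO3 shRNA and 18108430 with scrambled shRNA in Namalwa, and to 17282413 with FOXO3 shRNA and 17065756 with scrambled shRNA in Jiyoye. The median gene with a mean value of at least 100 had a log2 fold change of 0.00 in each line. These values are normalized between arms, so that median cannot show whether total RNA changed. B cell markers were high in all lines, with a summed deposited value over 7 genes of 48404 with FOXO3 shRNA against 57690.1 with scrambled shRNA in BL-41, 37317 with FOXO3 shRNA against 36388 with scrambled shRNA in Namalwa, and 11474 with FOXO3 shRNA against 12170.5 with scrambled shRNA in Jiyoye, although EBF1 was near 0 in Jiyoye (2.82 with FOXO3 shRNA, against 2.49 with scrambled shRNA, in the authors' deposited table).

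In BL-41, 9 of the 49 replication genes rose (18.4%), 14 fell (28.6%) and 26 did not pass the test at an adjusted p under 0.05. Of all genes tested in BL-41, 14.5% rose and 14.2% fell, and of those with a mean value of at least 100, a level that all 49 members reach, 20.0% rose and 20.7% fell. In Namalwa 5 members rose (10.2%), 2 fell (4.08%) and 42 did not pass, beside 2.60% and 3.81% of all genes tested and 3.85% and 5.76% of those whose mean is at least 100. In Jiyoye 2 rose (4.08%), 12 fell (24.5%) and 35 did not pass, beside 8.69% and 8.70% of all genes and 12.7% and 12.8% of those whose mean is at least 100. The falls in Jiyoye and BL-41 and the rises in Namalwa were thus the counts above the share of other genes at that level. Rises in Jiyoye were fewer than that share. At an adjusted p under 0.01, by DESeq2, falls in BL-41 numbered 8 and rises 7, so the excess of falls over rises there depended on the threshold. The members were chosen with earlier results of these data known, so these shares are a description. The median log2 fold change of the members was -0.20 in BL-41 and -0.14 in Jiyoye, and 0.14 in Namalwa. The median SE of a member was 0.15 for BL-41, 0.12 for Namalwa and 0.18 for Jiyoye, against 0.14, 0.13 and 0.15 over all genes at that level in the same order of lines. In bulk RNA, a smaller share of cells in S phase and less message per S phase cell cannot be told apart.

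**Figure D1:**
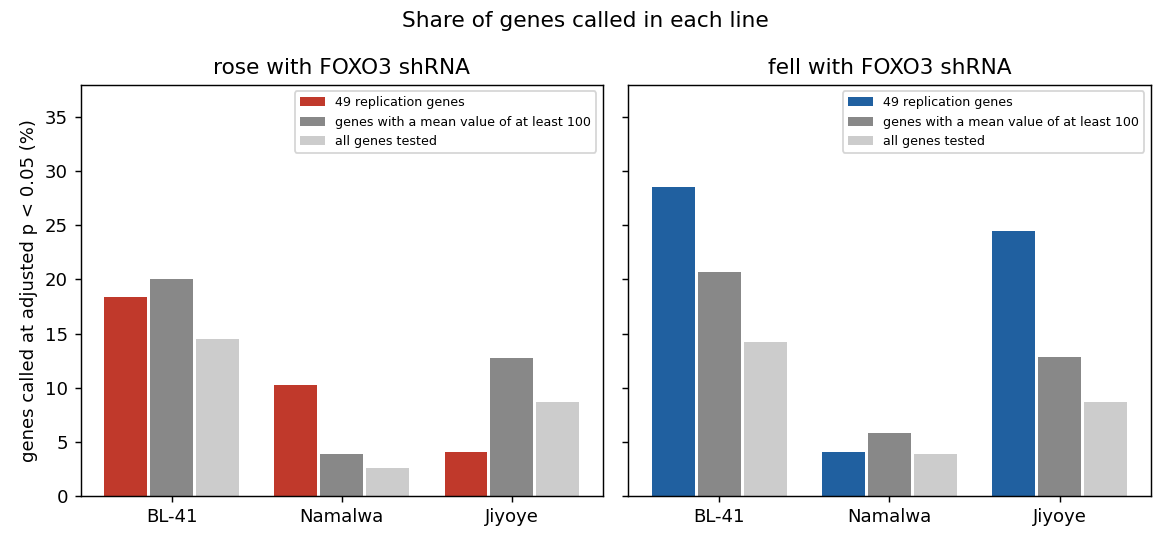
Share of genes called at an adjusted p under 0.05 (y axis, percent) in each line, for rises with FOXO3 shRNA (left panel) and falls (right panel); coloured bars are the 49 replication genes, dark grey bars genes with a mean value of at least 100 and light grey bars all genes tested. Falls among the replication genes reached 28.6% in BL-41 and 24.5% in Jiyoye, against 20.7% and 12.8% of genes with that mean.

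Across the lines, 27 of the 49 members were called in at least 1 line (55.1%) and 22 in none, close to the 51.5% called among the 8870 genes whose mean reached 100 in all 3 tables. RRM2 and POLD3 fell in all 3 lines (4.08%, against 2.67% of those genes) and GINS1 rose in all 3 (2.04%, against 2.28%), shares near the background. No member rose in 1 line and fell in another, and at 0.609% of the 8870 genes this was rare among them too. The fold change had the same sign in all 3 lines for 44.9% of the members, against 57.1% of the 8870 genes. Falls shared by BL-41 and Jiyoye numbered 9 (18.4% of the members, against 7.10% of the 8870 genes): CDC6, MCM7, CDC45, POLA1, POLD3, RRM1, RRM2, TK1 and LIG1. Rises shared by these lines numbered 2, DBF4 and GINS1 (4.08%, against 7.24%). The fold change was highest in Namalwa of the 3 lines for 33 members (67.3%), against 30.4% of the 8870 genes. Over the 49 members, Pearson's r between the fold changes of BL-41 and Namalwa was 0.67, between BL-41 and Jiyoye 0.69 and between Namalwa and Jiyoye 0.70. The same r over the 8870 genes was 0.66, 0.62 and 0.60; these are correlations across genes, which are not independent replicates, and each line has its own scrambled controls.

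**Figure D2:**
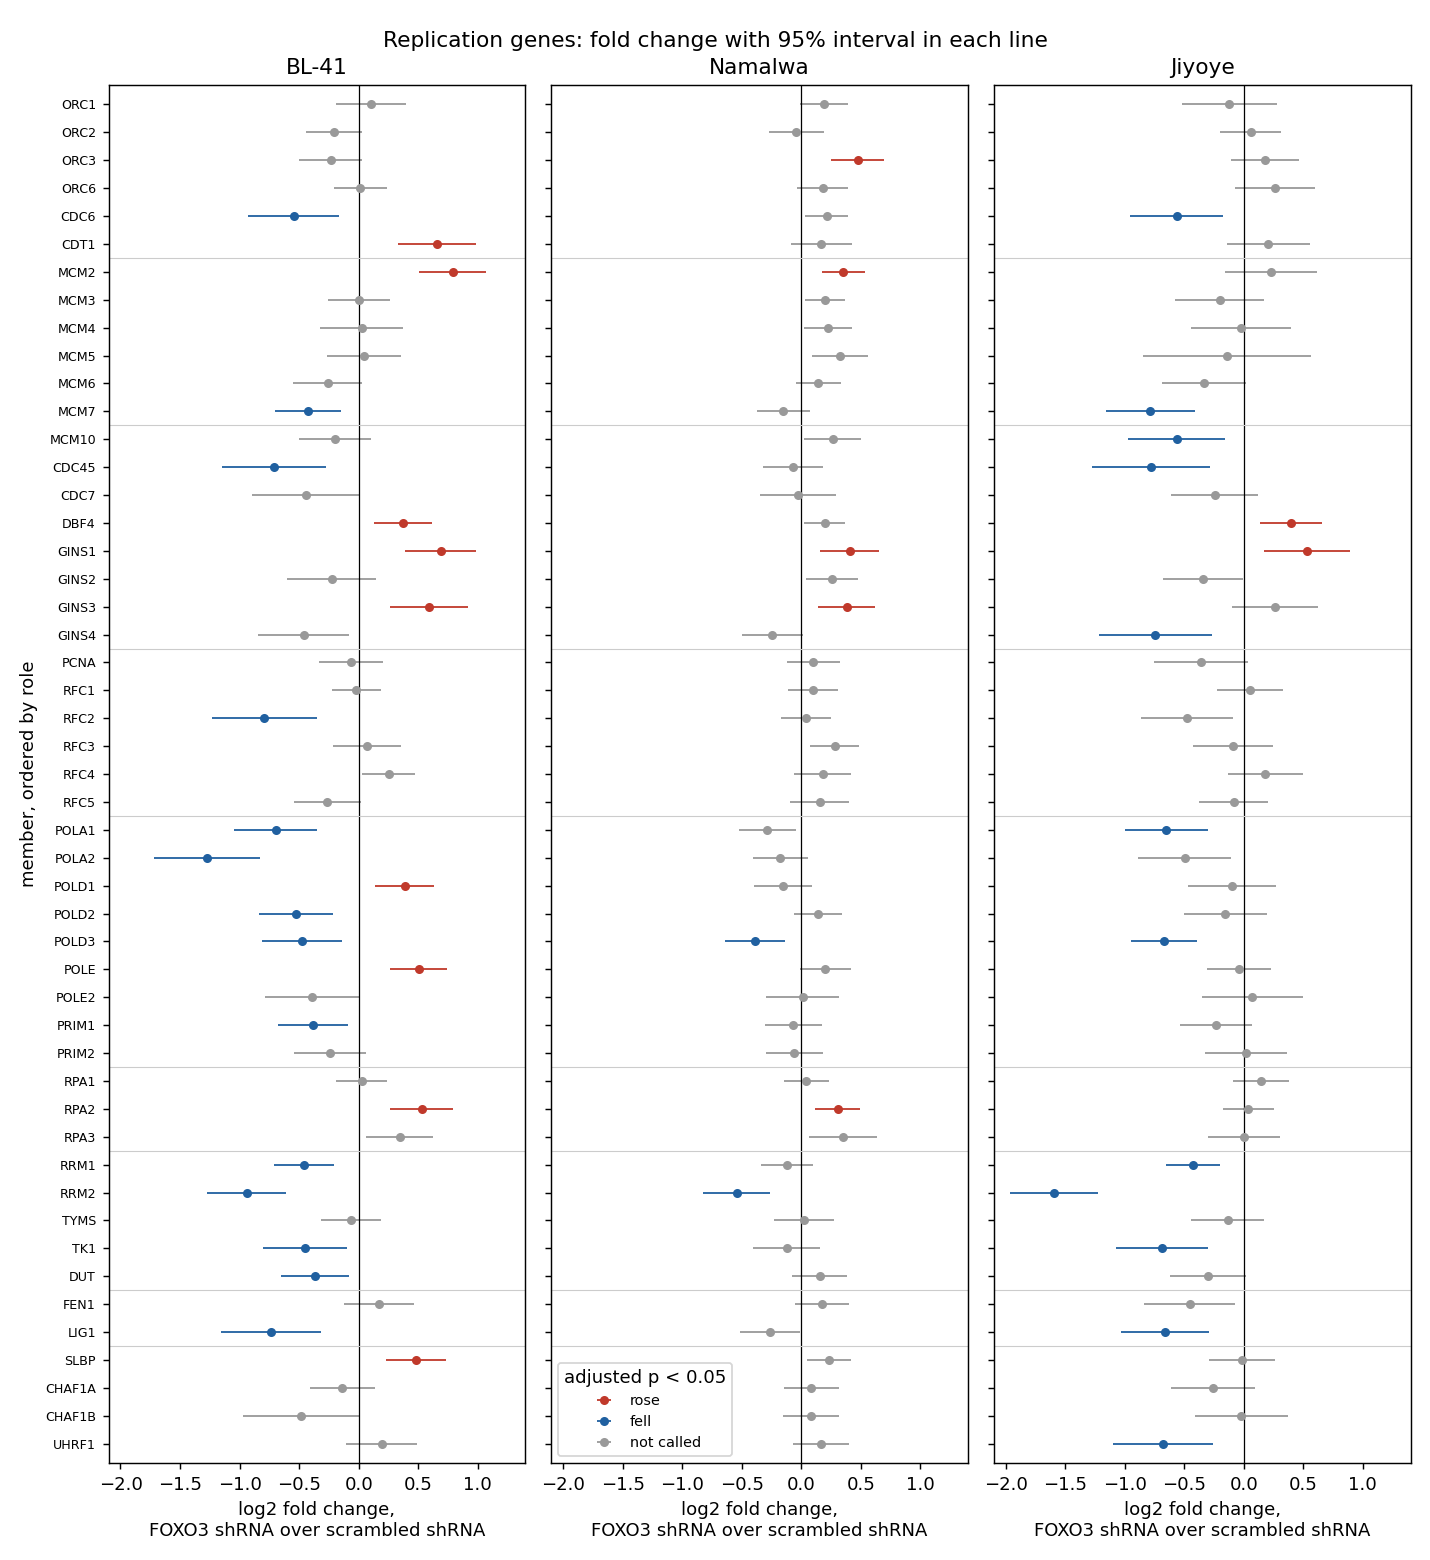
Log2 fold change of each replication gene, FOXO3 shRNA over scrambled shRNA (x axis), in the 3 lines, in rows by role from licensing (top) to chromatin assembly (bottom); points are the authors' values, bars 95% intervals from the recovered SE, red rises, blue falls and grey not called. RRM2 lies lowest in Namalwa and Jiyoye and POLA2 lowest in BL-41, at -1.27.

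Nucleotide supply had the largest share of falls of the 9 roles in each line, but roles hold 2 to 9 genes, so 1 gene can decide the order. Of its 5 members, 4 fell in BL-41 (80.0%), 3 in Jiyoye (60.0%) and 1 in Namalwa (20.0%), and none rose in any line. Of genes with a mean of at least 100, 20.7%, 12.8% and 5.76% fell in these lines, and 20.0%, 12.7% and 3.85% rose. Counts in the other roles are to be read beside the same shares. In Namalwa only RRM2 fell, and 2 of the 5 had positive fold changes. RRM2 (chr2:10122568-10211010), the small subunit of ribonucleotide reductase, which makes deoxyribonucleotides, had deposited values of 711, 1662 and 829.8 with FOXO3 shRNA in BL-41, Namalwa and Jiyoye, against 1365, 2421 and 2500.0 with scrambled shRNA. The FOXO3 shRNA value was lower in each line, with log2 fold changes in the authors' deposited table of -0.94, -0.54 and -1.59 (SE 0.17, 0.15 and 0.19, adjusted p 6.11e-07, 0.00601 and 9.6e-15). It had the lowest mean fold change of all 49 members over the lines. RRM1 (chr11:4094685-4138932), the large subunit of the same enzyme, had 2404, 3356 and 1838 with FOXO3 shRNA in BL-41, Namalwa and Jiyoye, against 3304, 3653 and 2468 with scrambled shRNA, in the authors' deposited table. It fell in BL-41 (log2 fold change -0.46, SE 0.13, adjusted p = 0.00215) and in Jiyoye (log2 fold change -0.43, SE 0.12, adjusted p = 0.00288), in the authors' deposited tables, and its value in Namalwa was -0.12 (95% interval -0.34 to 0.10).

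The promoter of RRM2 is shown because this gene had the lowest mean fold change. The sequences here are windows from 250 bases before to 50 bases after an annotated start, from RefSeq (GRCh38.p14), printed 5′ to 3′ in lower case on the strand of the gene, with matches to searched words in capitals. The words were the E2F word TTCCCGC and its variant TTCGCGC, its variant TTGCCGC and its variant TTGGCGC, the CCAAT box, and the forkhead word GTAAACA, on both strands, overlaps included, so that a word on the other strand reads as its reverse complement. The RRM2 window at chr2:10122489-10122788, plus strand, holds CCAAT 3 times, at -123, -93 and -66 from the start, and no E2F word:
RRM2: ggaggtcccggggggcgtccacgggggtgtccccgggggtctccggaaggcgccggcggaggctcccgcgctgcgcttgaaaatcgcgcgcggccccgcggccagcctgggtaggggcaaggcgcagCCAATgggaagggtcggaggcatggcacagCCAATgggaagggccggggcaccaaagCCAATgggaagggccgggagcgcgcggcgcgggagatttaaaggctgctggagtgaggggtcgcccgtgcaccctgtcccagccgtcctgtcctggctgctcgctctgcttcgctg

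A second annotated start of RRM2, with its window at chr2:10122318-10122617, has 1 E2F word at -192 and 1 CCAAT at -249. A window was found for 43 of the 49 members, 58 windows in all, and 10 members had more than 1. An E2F word stood in at least 1 window of 33 of the 43 genes (76.7%), against 26.6% of the 7458 genes of that level that have a window. By window the shares were 62.1% for members and 20.4% for those genes. CCAAT stood in 58.1% of the members' genes against 44.6%, and the forkhead word in 1 member, MCM7 (2.33%), against 3.50%. A match is a description of letters in a window and not a site at which a factor was shown to bind.

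TK1 (chr17:78174079-78187204), thymidine kinase, which salvages thymidine in S phase, had 819, 1017 and 782 with FOXO3 shRNA in BL-41, Namalwa and Jiyoye, against 1119, 1108 and 1261 with scrambled shRNA, in the authors' deposited table. It fell in BL-41 (log2 fold change -0.45, SE 0.18, adjusted p = 0.0437) and Jiyoye (log2 fold change -0.69, SE 0.20, adjusted p = 0.00493), in the authors' deposited tables. DUT (chr15:48331095-48343373), which removes dUTP so that uracil stays out of DNA, had 1493 with FOXO3 shRNA, against 1925 with scrambled shRNA, in the authors' deposited table for BL-41 (log2 fold change -0.37, SE 0.15, adjusted p = 0.0451). In Namalwa and Jiyoye its log2 fold changes were 0.15 and -0.30 and did not pass the test. TYMS (chr18:657653-673578), thymidylate synthase, had the highest mean fold change of this role and was called in no line, with deposited values of 2680.3, 4166 and 1521 with FOXO3 shRNA in BL-41, Namalwa and Jiyoye, against 2808, 4098 and 1671 with scrambled shRNA (log2 fold changes -0.07, 0.02 and -0.14). In GENCODE 44 the exons of 15 members overlap those of another protein-coding gene. TYMS has the largest overlap, at 39.9% of its exon bases, with ENOSF1 on the other strand, and whether the counting used strand is not given in the sources used here.

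**Figure D3:**
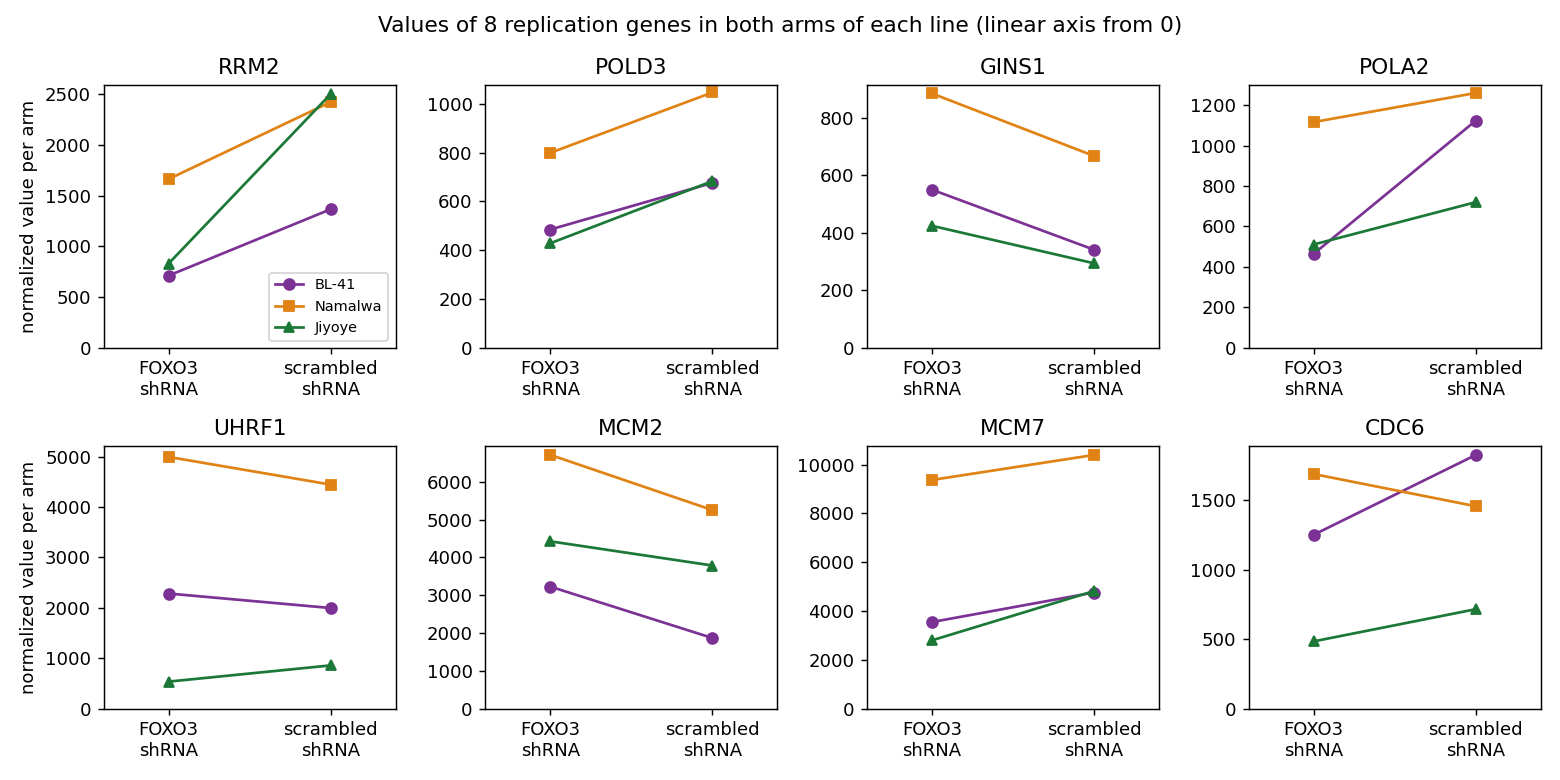
Deposited normalized value per arm (y axis, linear, from 0) of 8 replication genes with FOXO3 shRNA (left in each panel) and scrambled shRNA (right), with a line joining the 2 arms of BL-41 (circles), Namalwa (squares) and Jiyoye (triangles). RRM2 and POLD3 are lower with FOXO3 shRNA in each line and GINS1 is higher, while CDC6 is lower in BL-41 and Jiyoye and not in Namalwa.

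Of the 9 polymerase and primase genes, 2 rose (22.2%) and 5 fell (55.6%) in BL-41. Of genes with a mean of at least 100, 20.0% rose and 20.7% fell there. In Jiyoye 2 fell (22.2%, beside 12.8% of such genes) and in Namalwa 1 fell (11.1%, beside 5.76%). POLD3 (chr11:74592582-74669341), an accessory subunit of DNA polymerase delta, had 485, 799 and 428 with FOXO3 shRNA in BL-41, Namalwa and Jiyoye, against 676, 1046 and 683 with scrambled shRNA, in the authors' deposited table. Its log2 fold changes there were -0.48, -0.39 and -0.67 (SE 0.17, 0.13 and 0.14, adjusted p 0.0216, 0.0388 and 5.27e-05), a fall in every line. The other delta subunits among the members were called in BL-41 alone, and in opposite directions. POLD1 (chr19:50384323-50418018), the catalytic subunit, had 1674 with FOXO3 shRNA, against 1281 with scrambled shRNA, in the authors' deposited table for BL-41, and rose (log2 fold change 0.39, SE 0.13, adjusted p = 0.011). POLD2 (chr7:44114680-44124325), a further accessory subunit, fell in BL-41, with 1656 with FOXO3 shRNA, against 2384 with scrambled shRNA, in the authors' deposited table (log2 fold change -0.53, SE 0.16, adjusted p = 0.00542). Neither passed the test in Namalwa (log2 -0.15 for POLD1 and 0.14 for POLD2) or Jiyoye (-0.10 and -0.16).

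DNA polymerase alpha, which starts each new strand with primase, gave the deepest fall of any member in BL-41. POLA2 (chr11:65261962-65305985), its accessory subunit, had 464, 1116 and 511 with FOXO3 shRNA in BL-41, Namalwa and Jiyoye, against 1122, 1259.7 and 719.8 with scrambled shRNA, in the authors' deposited table. The BL-41 value was lower by a log2 fold change of -1.27 (SE 0.23, adjusted p = 4.09e-07), whereas -0.18 in Namalwa and -0.50 in Jiyoye did not pass the test (adjusted p = 0.522 and 0.0658). The exons of POLA2 share 16.8% of their bases with another gene model on the same strand. POLA1 (chrX:24693918-24996986), the catalytic subunit, fell in BL-41, with 413 with FOXO3 shRNA, against 669 with scrambled shRNA (log2 fold change -0.70, SE 0.18, adjusted p = 0.00064), and in Jiyoye, with 302 with FOXO3 shRNA, against 474 with scrambled shRNA (log2 fold change -0.65, SE 0.18, adjusted p = 0.00298), in the authors' deposited tables. In Namalwa POLA1 had -0.28 (95% interval -0.52 to -0.05) and did not pass the adjusted test. PRIM1 (chr12:56731580-56752323), the catalytic subunit of primase, had 662 with FOXO3 shRNA, against 862 with scrambled shRNA, in the authors' deposited table for BL-41 (log2 fold change -0.38, SE 0.15, adjusted p = 0.0402). POLE (chr12:132623762-132687342), the catalytic subunit of the leading-strand polymerase epsilon and the gene of this role with the highest mean fold change, rose in BL-41, with 2627 with FOXO3 shRNA, against 1851 with scrambled shRNA, in the authors' deposited table (log2 fold change 0.51, SE 0.12, adjusted p = 0.000332). POLE2 and PRIM2, the remaining subunits, were called in no line, with log2 fold changes from -0.39 (POLE2 in BL-41) to 0.07 (POLE2 in Jiyoye).

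The POLA2 promoter is printed because its gene gave the deepest fall in BL-41 and differed from Namalwa. Its window, chr11:65261712-65262011 on the plus strand, holds 1 E2F word at -52 from the start and no CCAAT:
POLA2: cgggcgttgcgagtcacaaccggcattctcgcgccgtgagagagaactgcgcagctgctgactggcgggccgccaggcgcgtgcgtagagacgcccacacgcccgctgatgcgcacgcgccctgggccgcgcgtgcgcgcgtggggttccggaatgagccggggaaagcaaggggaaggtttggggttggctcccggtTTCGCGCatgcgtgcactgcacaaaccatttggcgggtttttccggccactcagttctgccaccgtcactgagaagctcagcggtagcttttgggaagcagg

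Among the 6 genes that recognise origins and license them, 1 rose and 1 fell in BL-41, 1 fell in Jiyoye and 1 rose in Namalwa. Each count is 16.7% of the role. Of genes with a mean of at least 100, 20.0% rose and 20.7% fell in BL-41, 12.8% fell in Jiyoye and 3.85% rose in Namalwa. CDC6 (chr17:40287879-40304657), the ATPase that loads the MCM ring with the origin recognition complex, had 1251, 1689 and 484 with FOXO3 shRNA in BL-41, Namalwa and Jiyoye, against 1826, 1457 and 715 with scrambled shRNA, in the authors' deposited table. It fell in BL-41 (log2 fold change -0.55, SE 0.20, adjusted p = 0.0219) and Jiyoye (log2 fold change -0.56, SE 0.20, adjusted p = 0.0309) and had 0.21 in Namalwa (adjusted p = 0.165). It had the lowest mean fold change of this role. CDT1 (chr16:88803789-88809258), the partner of CDC6 in loading, had the highest, and rose in BL-41, with 4008 with FOXO3 shRNA, against 2538 with scrambled shRNA, in the authors' deposited table (log2 fold change 0.66, SE 0.17, adjusted p = 0.000571). The loading pair thus moved in opposite directions in BL-41. ORC3 (chr6:87590135-87677823), a subunit of the origin recognition complex, had 1138 with FOXO3 shRNA, against 819 with scrambled shRNA in the authors' deposited table for Namalwa and rose there (log2 fold change 0.47, SE 0.12, adjusted p = 0.00183). ORC1, ORC2 and ORC6, further subunits, were called in no line, with log2 fold changes from -0.21 (ORC2 in BL-41) to 0.26 (ORC6 in Jiyoye).

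The CDC6 promoter is shown since its gene was called in BL-41 and Jiyoye, and not in Namalwa, from which both differed. Its window, chr17:40287629-40287928 on the plus strand, holds an E2F word at 9 from the start and CCAAT 3 times, at -126, -103 and -50:
CDC6: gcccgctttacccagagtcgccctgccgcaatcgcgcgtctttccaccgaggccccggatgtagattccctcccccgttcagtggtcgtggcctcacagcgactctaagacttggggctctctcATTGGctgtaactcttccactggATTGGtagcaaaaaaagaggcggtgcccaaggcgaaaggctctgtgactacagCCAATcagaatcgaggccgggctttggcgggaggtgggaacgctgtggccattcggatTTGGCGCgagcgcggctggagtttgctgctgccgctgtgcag

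The MCM helicase is a ring of 6 subunits, MCM2 to MCM7, and its genes did not move as 1 unit. MCM2 (chr3:127598411-127622436) had 3226, 6711 and 4424 with FOXO3 shRNA in BL-41, Namalwa and Jiyoye, against 1867, 5251 and 3784 with scrambled shRNA, in the authors' deposited table. It rose in BL-41 (log2 fold change 0.79, SE 0.14, adjusted p = 1.14e-06) and in Namalwa (log2 fold change 0.35, SE 0.09, adjusted p = 0.00514), and its 0.23 in Jiyoye did not pass the test (95% interval -0.16 to 0.61). MCM7 (chr7:100092728-100101397) had 3547, 9369.6 and 2796 with FOXO3 shRNA in BL-41, Namalwa and Jiyoye, against 4758, 10395 and 4818 with scrambled shRNA, in the authors' deposited table. It fell in BL-41 (log2 fold change -0.42, SE 0.14, adjusted p = 0.0125) and Jiyoye (log2 fold change -0.78, SE 0.19, adjusted p = 0.000592), and its -0.15 in Namalwa did not pass. Of the 6 genes MCM2 had the highest and MCM7 the lowest mean fold change. MCM3, MCM4, MCM5 and MCM6 were called in no line, with log2 fold changes between -0.26 and 0.05 in BL-41, between 0.14 and 0.33 in Namalwa, and between -0.33 and -0.02 in Jiyoye. MCM5 in Jiyoye had the widest SE of any member, 0.36.

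Among the 8 genes that activate the helicase, 3 rose and 1 fell in BL-41, 2 rose in Namalwa, and 2 rose and 3 fell in Jiyoye. GINS1 (chr20:25407673-25448563), a subunit of the GINS complex, had 550.2, 885 and 425 with FOXO3 shRNA in BL-41, Namalwa and Jiyoye, against 341, 668 and 294 with scrambled shRNA, in the authors' deposited table. The FOXO3 shRNA value was higher in each line, by log2 fold changes of 0.69, 0.41 and 0.53 (SE 0.15, 0.13 and 0.18, adjusted p 8.1e-05, 0.0279 and 0.028), the highest mean of all members. GINS3 (chr16:58392471-58406147), another subunit, rose in BL-41, with 502 with FOXO3 shRNA, against 334 with scrambled shRNA (log2 fold change 0.59, SE 0.17, adjusted p = 0.00278), and in Namalwa, with 925 with FOXO3 shRNA, against 710.4 with scrambled shRNA (log2 fold change 0.38, SE 0.12, adjusted p = 0.0369), in the authors' deposited tables. GINS4 (chr8:41529261-41545030) went the other way and fell in Jiyoye, with 327 with FOXO3 shRNA, against 546 with scrambled shRNA, in the authors' deposited table (log2 fold change -0.74, SE 0.24, adjusted p = 0.0167). GINS2 was called in no line (log2 -0.23, 0.26 and -0.34). Of the 4 GINS genes, 2 rose in at least 1 line, 1 fell and 1 was called in none.

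CDC45 (chr22:19479466-19520612), which joins MCM and GINS in the active helicase, had 712, 934 and 271 with FOXO3 shRNA in BL-41, Namalwa and Jiyoye, against 1165, 980.4 and 465 with scrambled shRNA, in the authors' deposited table. It fell in BL-41 (log2 fold change -0.71, SE 0.22, adjusted p = 0.00741) and Jiyoye (log2 fold change -0.78, SE 0.25, adjusted p = 0.0169), had -0.07 in Namalwa, and had the lowest mean fold change of this role. DBF4 (chr7:87876493-87909553), the activating subunit of the CDC7 kinase, rose in BL-41, with 1799 with FOXO3 shRNA, against 1391 with scrambled shRNA (log2 fold change 0.37, SE 0.12, adjusted p = 0.0129), and in Jiyoye, with 1707 with FOXO3 shRNA, against 1296 with scrambled shRNA (log2 fold change 0.40, SE 0.13, adjusted p = 0.0214), in the authors' deposited tables. CDC7, the kinase itself, was called in no line (log2 -0.45, -0.03 and -0.25). MCM10 (chr10:13161558-13211110), which helps the helicase start, fell in Jiyoye, with 382 with FOXO3 shRNA, against 565 with scrambled shRNA, in the authors' deposited table (log2 fold change -0.56, SE 0.21, adjusted p = 0.0413).

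The GINS1 promoter is shown because GINS1 was the only member that rose in each of the 3 lines. Its window, chr20:25407423-25407722 on the plus strand, holds an E2F word at 6 from the start and 1 CCAAT at -13, both on the other strand:
GINS1: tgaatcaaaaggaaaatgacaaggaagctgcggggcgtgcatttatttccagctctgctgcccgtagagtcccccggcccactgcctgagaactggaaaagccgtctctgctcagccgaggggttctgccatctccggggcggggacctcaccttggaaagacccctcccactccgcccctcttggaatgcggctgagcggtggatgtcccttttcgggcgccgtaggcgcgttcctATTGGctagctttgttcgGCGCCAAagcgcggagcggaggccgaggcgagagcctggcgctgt

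The clamp, its loader and the strand-binding proteins gave few calls. Of the 6 clamp genes 1 fell in BL-41 (16.7%, beside 20.7% of genes with a mean of at least 100). None was called in Namalwa or Jiyoye, where 1 reached an unadjusted p under 0.05 in each, by DESeq2. RFC2 (chr7:74231502-74254399), a subunit of the clamp loader and the gene of this role with the lowest mean fold change, had 396 with FOXO3 shRNA, against 685 with scrambled shRNA, in the authors' deposited table for BL-41 (log2 fold change -0.79, SE 0.23, adjusted p = 0.00288). In Namalwa it had 0.04, and in Jiyoye -0.48 with an adjusted p of 0.0735. RFC4, with the highest mean, had 0.25, 0.18 and 0.18 and was called in no line. PCNA (chr20:5114953-5126622), the sliding clamp and a common marker of proliferating cells, had 3349, 5699 and 1846 with FOXO3 shRNA in BL-41, Namalwa and Jiyoye, against 3500.0, 5308 and 2370.3 with scrambled shRNA, in the authors' deposited table. Its log2 fold changes of -0.06, 0.10 and -0.36 did not pass the test (95% interval -0.33 to 0.20 for BL-41, -0.12 to 0.33 for Namalwa and -0.76 to 0.04 for Jiyoye). RFC1, RFC3 and RFC5 ranged from -0.26 (RFC5 in BL-41) to 0.28 (RFC3 in Namalwa) with no call.

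RPA2 (chr1:27891524-27914797), the middle subunit of the protein that coats single-stranded DNA, rose in BL-41, with 1929 with FOXO3 shRNA, against 1337 with scrambled shRNA (log2 fold change 0.53, SE 0.13, adjusted p = 0.000638), and in Namalwa, with 1584 with FOXO3 shRNA, against 1279.9 with scrambled shRNA (log2 fold change 0.31, SE 0.10, adjusted p = 0.0291), in the authors' deposited tables. In Jiyoye it had 0.04. RPA1, the large subunit, had the lowest mean of this role and log2 fold changes of 0.02, 0.04 and 0.14. RPA3, the small subunit, had 0.34, 0.35 and 0.00, and neither was called in any line. In Jiyoye none of the 3 RPA genes was called or reached an unadjusted p under 0.05 (0 of 3, by DESeq2).

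LIG1 (chr19:48115445-48170344), the ligase that joins Okazaki fragments, had 533, 1670.0 and 805 with FOXO3 shRNA in BL-41, Namalwa and Jiyoye, against 888, 2006 and 1274 with scrambled shRNA, in the authors' deposited table. It fell in BL-41 (log2 fold change -0.74, SE 0.21, adjusted p = 0.00335) and Jiyoye (log2 fold change -0.66, SE 0.19, adjusted p = 0.00462), and its -0.26 in Namalwa did not pass. FEN1, the nuclease that trims the fragments before ligation, was called in no line (log2 0.17, 0.18 and -0.45). In Namalwa neither gene was called, and 1 of them reached an unadjusted p under 0.05 by DESeq2.

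Of the 4 genes of chromatin assembly and histone message, SLBP rose in BL-41 and UHRF1 fell in Jiyoye, and none was called in Namalwa, where 1 reached an unadjusted p under 0.05 by DESeq2. SLBP (chr4:1692731-1712319), which binds the stem-loop of histone messages and had the highest mean of this role, had 2004 with FOXO3 shRNA, against 1436 with scrambled shRNA, in the authors' deposited table for BL-41 (log2 fold change 0.48, SE 0.13, adjusted p = 0.00124). UHRF1 (chr19:4903080-4962154), which carries DNA methylation over to the new strand, had 2284, 4996 and 536 with FOXO3 shRNA in BL-41, Namalwa and Jiyoye, against 1996, 4446 and 857 with scrambled shRNA, in the authors' deposited table. It fell in Jiyoye (log2 fold change -0.68, SE 0.22, adjusted p = 0.0139), and its values of 0.19 in BL-41 and 0.17 in Namalwa did not pass. CHAF1A and CHAF1B, subunits of the chromatin assembly factor CAF-1, were called in no line, with CHAF1B the lowest mean of the role (log2 -0.48, 0.08 and -0.02) and -0.14, 0.09 and -0.26 for CHAF1A.

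The deposited values are not corrected for length, so levels of different genes are set side by side per kilobase. With FOXO3 shRNA, PCNA had deposited values of 2539, 4321 and 1399 per kilobase in the BL-41, Namalwa and Jiyoye tables, against 2654, 4024 and 1796 with scrambled shRNA. POLA1 stood low, at 75.5, 150.1 and 55.1 per kilobase with FOXO3 shRNA in the same lines, against 122, 183 and 86.7 with scrambled shRNA. All members together held 0.399% of the summed deposited value with FOXO3 shRNA in BL-41, against 0.426% with scrambled shRNA. They held 0.687% with FOXO3 shRNA against 0.647% with scrambled shRNA in Namalwa, and 0.324% with FOXO3 shRNA against 0.377% with scrambled shRNA in Jiyoye. The tables were normalized separately, so levels are ranked within a line: the median member stood at percentile 80.1 of all genes tested in BL-41 with scrambled shRNA, at 83.6 for Namalwa and at 74.8 for Jiyoye. RRM2 with scrambled shRNA stood at percentile 81.6 for BL-41, 89.2 for Namalwa and 92.6 for Jiyoye.

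Whether a gene's response differed between lines was tested on the difference of the log2 fold changes, with a z test from the recovered SE and Benjamini-Hochberg adjustment over all genes of each pair of lines. Of 147 member differences 11 passed. The shares set beside the counts below cover all shared genes, also those of lower level than any member. A share at the members' level is not given, so whether members differed more often than such genes cannot be read from them. Between BL-41 and Namalwa 6 of 49 differed, beside 7.01% of all genes tested in both. POLA2 differed by -1.10 (BL-41 minus Namalwa, SE 0.26, adjusted p = 0.00139), RFC2 by -0.83 (adjusted p = 0.0213) and CDC6 by -0.76 (adjusted p = 0.0127). ORC3 differed by -0.71 (adjusted p = 0.00376) and POLD2 by -0.67 (adjusted p = 0.0127). These 5 were lower in BL-41, and POLD1, at 0.54 (adjusted p = 0.0398), was higher.

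Between BL-41 and Jiyoye 1 member differed, beside 6.25% of all genes: UHRF1, by 0.87 (BL-41 minus Jiyoye, adjusted p = 0.0231). Between Namalwa and Jiyoye 4 differed, beside 2.75% of all genes. RRM2 differed by 1.05 (Namalwa minus Jiyoye, SE 0.24, adjusted p = 0.00185), so that its fall was deeper in Jiyoye. UHRF1 differed by 0.85 (adjusted p = 0.0295), MCM10 by 0.83 (adjusted p = 0.0289) and CDC6 by 0.78 (adjusted p = 0.0216), in each case with the higher value in Namalwa. For the other members no difference between lines was shown. FOXO3's own log2 fold change was -1.09 in Namalwa and -0.30 in Jiyoye, in the authors' deposited tables, and its part in these differences was not tested. With every SE enlarged by 25%, only POLA2 between BL-41 and Namalwa still passed.

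**Figure D4:**
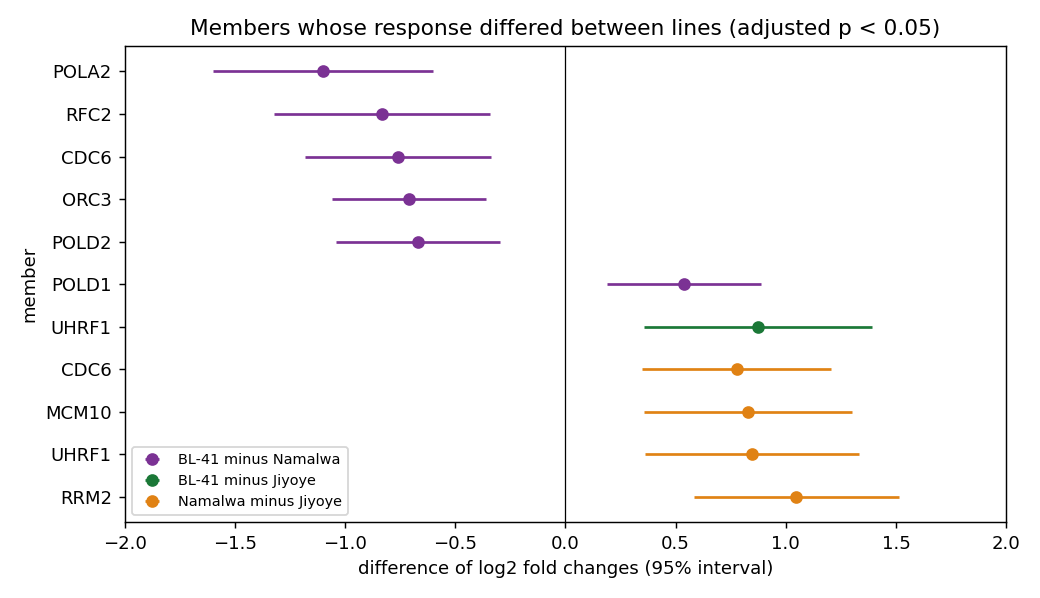
Difference between lines in the log2 fold change (x axis, with 95% interval) of the replication genes that passed the z test; colours name the pair of lines. POLA2, at -1.10, lies furthest below 0 and RRM2, at 1.05, furthest above.

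Genes beside the 49 were counted from lists of related functions. For scale, of genes with a mean of at least 100, 20.0% rose and 20.7% fell in BL-41. The same shares were 3.85% and 5.76% in Namalwa and 12.7% and 12.8% in Jiyoye. The lists of nucleotide synthesis, of E2F, RB and G1 to S, and of histones also hold genes below that mean. Genes named from a list had its smallest adjusted p and do not stand for all of it. Of 31 other replication genes, 1 rose and 4 fell in BL-41 (3.23% and 12.9%) and 3 rose in Namalwa (9.68%). In Jiyoye 1 rose and 5 fell (3.23% and 16.1%). RECQL4, a helicase of replication initiation, rose in each line, with 3909, 3696 and 997 with FOXO3 shRNA in BL-41, Namalwa and Jiyoye, against 1259, 2512 and 674 with scrambled shRNA (log2 fold changes 1.63, 0.56 and 0.57, adjusted p 1.26e-31, 2.33e-05 and 0.0111), in the authors' deposited table. In Jiyoye ATAD5, which unloads the clamp, had 386 with FOXO3 shRNA, against 837 with scrambled shRNA (log2 -1.12, adjusted p = 2.28e-10), SUPT16H, a subunit of the histone chaperone FACT, had a log2 fold change of -0.67 (adjusted p = 0.000181) and ORC4, a further origin recognition subunit, -0.52 (adjusted p = 0.00736), in the authors' deposited table.

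Of 23 other genes of nucleotide synthesis, 2 rose and 7 fell in BL-41 (8.70% and 30.4%) and 2 fell in Namalwa (8.70%). In Jiyoye 3 rose and 2 fell (13.0% and 8.70%). SHMT1, which supplies one-carbon units for thymidylate, fell in each line, with 223, 300.0 and 356 with FOXO3 shRNA in BL-41, Namalwa and Jiyoye, against 432, 504 and 704 with scrambled shRNA (log2 fold changes -0.95, -0.75 and -0.98, adjusted p 1.91e-05, 6.07e-07 and 2.03e-05), in the authors' deposited table. In BL-41 CTPS1, which makes CTP, had a deposited log2 fold change of -0.82 (adjusted p = 9.41e-07), against rises of IMPDH2, of guanine nucleotide synthesis, by 0.81 (adjusted p = 7.04e-08) and of CMPK1, a UMP and CMP kinase, by 0.64 (adjusted p = 7.01e-07).

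Of 15 other genes of chromatin assembly, 3 rose and 3 fell in BL-41 (20.0% each), and 2 rose and 4 fell in Jiyoye (13.3% and 26.7%). None was called in Namalwa (3 positive and 2 negative at an unadjusted p under 0.05, by DESeq2). In BL-41 the deposited log2 fold changes were 0.87 for TONSL, which reads new histones (adjusted p = 8.23e-10), 0.46 for the histone chaperone DAXX (adjusted p = 0.000306), -0.95 for the remodeller HELLS (adjusted p = 8.08e-05) and -0.53 for its fellow remodeller ATRX (adjusted p = 1.42e-05). The replication-dependent histone genes, whose messages mostly lack a poly(A) tail, rose without exception among those called. Of 48 measured in BL-41, 18 rose (37.5%), of 47 in Namalwa 13 rose (27.7%), and of 48 in Jiyoye 11 rose (22.9%). None fell in any line (falls at an unadjusted p under 0.05 were 2, 0 and 0 in these lines, by DESeq2). HIST1H1C, a linker histone gene, had 3058, 1088 and 1563 with FOXO3 shRNA in BL-41, Namalwa and Jiyoye, against 116, 167 and 201 with scrambled shRNA, in the authors' deposited table (log2 fold changes 4.72, 2.70 and 2.96). HIST1H2BK, with 3.97, 4.01 and 2.27, HIST1H2BD, with 3.92, 2.81 and 1.70, and HIST2H2AA3, with 3.21, 2.42 and 2.22 and a near-identical copy that could share its reads, rose in each line too, in the authors' deposited tables. In oligo-dT libraries a gain of these genes may be more message or more message with a tail, which cannot be told apart here.

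Of 31 genes of E2F, RB and the G1 to S transition, 6 rose and 7 fell in BL-41, 1 fell in Namalwa, and 4 rose and 4 fell in Jiyoye. In BL-41 E2F5, a repressor of the family, had 1088 with FOXO3 shRNA, against 2119 with scrambled shRNA (log2 -0.96, adjusted p = 3.89e-11), and MYC had 3962 with FOXO3 shRNA, against 6674 with scrambled shRNA (log2 -0.75, adjusted p = 0.000131), in the authors' deposited table. E2F7, another repressor, rose by 0.61 (adjusted p = 0.00056) and RB1, which holds E2F factors in check, by 0.53 (adjusted p = 0.000934) on the log2 scale, in the authors' deposited table for BL-41. MYC was not called in Namalwa (0.15) or Jiyoye (0.00).

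Of 13 genes of the replication checkpoint, 2 rose and 1 fell in BL-41 (15.4% and 7.69%) and 1 rose in Namalwa (7.69%). In Jiyoye 2 rose and 2 fell (15.4% each). RAD9A, of the checkpoint clamp, rose in each line, with 963, 798 and 573 with FOXO3 shRNA in BL-41, Namalwa and Jiyoye, against 403, 549 and 387 with scrambled shRNA, in the authors' deposited table (log2 fold changes 1.26, 0.54 and 0.57). In Jiyoye its clamp partner HUS1 rose (log2 0.49, adjusted p = 0.0473), while the kinase ATM (-0.63, adjusted p = 0.00206) and the phosphatase CDC25C (-0.50, adjusted p = 0.00709) fell, in the authors' deposited table. Of 25 mitosis genes, 5 rose and 8 fell in BL-41, none was called in Namalwa (5 negative and 0 positive at an unadjusted p under 0.05, by DESeq2), and 2 rose and 2 fell in Jiyoye. In BL-41 INCENP, of the chromosomal passenger complex, rose by 0.98 and CDC20, which activates the anaphase ligase, by 0.40, and the spindle genes KIF11 (-0.63) and TPX2 (-0.50) fell, on the log2 scale, with adjusted p = 5.43e-10, 0.000363, 0.000114 and 9.34e-05, in the authors' deposited table.

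Of these 7 lists the histones had the highest median in each line. As log2 fold changes for BL-41, Namalwa and Jiyoye, the lists' medians were -0.10, 0.02 and -0.21 for the other replication genes, -0.20, 0.08 and -0.09 for nucleotide synthesis and -0.05, 0.02 and -0.24 for chromatin assembly. They were -0.07, -0.01 and -0.05 for E2F, RB and G1 to S, -0.12, 0.06 and -0.02 for the checkpoint, 0.04, -0.17 and -0.07 for mitosis and 0.66, 0.47 and 0.41 for the histones. Over all genes tested the median was 0.02 for BL-41, 0.00 for Namalwa and 0.01 for Jiyoye.

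Markers of other cell types moved in BL-41 beside the changes above. Of 8 myeloid markers 4 rose there and none fell, with a summed value of 326 with FOXO3 shRNA against 153 with scrambled shRNA; LYZ had 107 with FOXO3 shRNA, against 37.9 with scrambled shRNA, CD14 26.7 with FOXO3 shRNA, against 5.25 with scrambled shRNA, CD33 97.6 with FOXO3 shRNA, against 54.1 with scrambled shRNA and CD68 69.5 with FOXO3 shRNA, against 36.8 with scrambled shRNA, in the authors' deposited table. In Namalwa none of 7 was called (1 rose at an unadjusted p under 0.05, by DESeq2), with sums of 190 with FOXO3 shRNA against 184 with scrambled shRNA, and in Jiyoye 1 of 7 rose, with 549 with FOXO3 shRNA against 624 with scrambled shRNA. The B cell genes CD79B (-0.84), EBF1 (-0.62) and CD22 (-0.48) fell in BL-41, 3 of 7 in all, and 2 of 7 rose in Jiyoye. T cell markers summed to 105 with FOXO3 shRNA against 88.9 with scrambled shRNA in BL-41, 5.07 with FOXO3 shRNA against 4.88 with scrambled shRNA in Namalwa, and 134 with FOXO3 shRNA against 120.5 with scrambled shRNA in Jiyoye, and none of them was called (1 reached an unadjusted p under 0.05, in Jiyoye, by DESeq2). Of 7 epithelial and fibroblast markers, 4 were measured, with a sum in Jiyoye of 2127 with FOXO3 shRNA against 3347 with scrambled shRNA, and KRT8 fell in Jiyoye, with 1823 with FOXO3 shRNA, against 2978 with scrambled shRNA, in the authors' deposited table. The part of these markers in the results was not tested.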

How the data were processed

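The 18 libraries form 6 groups, from BL-41, Namalwa and Jiyoye cells with FOXO3 shRNA or scrambled shRNA. Reads were filtered with SOAPnuke, mapped with Bowtie2 to hg38, quantified with RSEM and tested with DESeq2, per the series' design text, and versions are not given in the sources used here. The authors deposited 1 table per line. It gives 1 normalized signal value per arm, not corrected for length, the log2 fold change of FOXO3 shRNA over scrambled shRNA, which the authors moderated, and the p-value with its adjusted p, per the file headers. The log2 ratio of the arm values gave the deposited log2 fold change to within 1.39e-14, so the arm values are no separate check of that fold change. Whether they were derived from the moderated fold change was not tested.

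It had been planned to leave out each library in turn and to fit a replicate block, and neither was possible, because the tables used here hold no value per library. Depth per library is therefore unknown, and no counting interval is given. Calls are the authors' own DESeq2 test at an adjusted p under 0.05 over all genes of a line, with no threshold on size. An SE was recovered for each fold change, as its size over the normal quantile of its p, and 95% intervals use it. Fold changes of lines were compared with a two-sided z test on their difference, adjusted by Benjamini-Hochberg over all genes shared by the 2 lines. That test was tested on simulated data with noise drawn from the same SE, so it does not test the recovered SE themselves. Values per kilobase divide an arm value by the transcript length of the same table.

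The 49 members and the 11 other lists were chosen with earlier results of these data known. The text names FOXO3, every member called in a line or differing between lines, the members of each role with the highest and lowest mean fold change, and of each other list up to 4 genes with the smallest adjusted p in the line with most calls. Members with no call are given as ranges or beside the rest of their role. Alternatives tried were an adjusted p under 0.01, a minimum size of 0.5 for the log2 fold change, only genes with a mean of at least 100, centring on the median, an SE enlarged by 25% and, chosen after the data were seen, the authors' own up and down marks. Positions and promoter windows are RefSeq's (GRCh38.p14); exon overlaps are from GENCODE 44. Scripts ran in Python 3.11.15 with scipy 1.17.1, pandas 2.3.3 and numpy 2.4.6, and figures were drawn with matplotlib 3.10.9.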

Additional observations from a re-analysis of the deposited data

Results flagged for a closer look

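A difference between lines in the response to FOXO3 shRNA passed the z test, adjusted by the Benjamini-Hochberg method, for 9 members in 11 of 147 comparisons. Values are differences of log2 fold changes, with 95% intervals. For BL-41 minus Namalwa they were -1.10 for POLA2 (-1.60 to -0.60), -0.83 for RFC2 (-1.32 to -0.34), -0.76 for CDC6 (-1.18 to -0.34), -0.71 for ORC3 (-1.06 to -0.36), -0.67 for POLD2 (-1.04 to -0.30) and 0.54 for POLD1 (0.19 to 0.89). For BL-41 minus Jiyoye the value was 0.87 for UHRF1 (0.36 to 1.39). For Namalwa minus Jiyoye they were 1.05 for RRM2 (0.58 to 1.51), 0.85 for UHRF1 (0.36 to 1.33), 0.83 for MCM10 (0.36 to 1.30) and 0.78 for CDC6 (0.35 to 1.21).

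CDC6 and UHRF1 each differed in 2 comparisons. CDC6 fell in BL-41 and Jiyoye and had a positive value in Namalwa, and UHRF1 fell in Jiyoye and had positive values in BL-41 and Namalwa. RRM2 fell in both lines compared, and the difference there is one of size.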

How the results depend on the processing

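No result reversed its direction under any alternative, but for a called value none could have done so. The thresholds, the mean filter, the larger SE and the authors' marks leave every fold change as it is. Centring subtracts the median of genes with a mean of at least 100. That median was 0.0002 for BL-41, 0.0041 for Jiyoye and 0.0044 for Namalwa, too small to change the sign of a called value. The members' medians with centring were -0.20 in BL-41, -0.15 in Jiyoye and 0.14 in Namalwa. Counts of calls depended on the threshold. At an adjusted p under 0.01, falls in BL-41 went down to 8 members and rises to 7. Rises in Namalwa went down to 2 and falls there to 1, rises in Jiyoye to 0 (2 at 0.05) and falls there to 7. With a minimum size of 0.5 for the log2 fold change, BL-41 had 8 falls and 6 rises, Namalwa 1 and 0, and Jiyoye 11 and 1. The excess of falls over rises in BL-41, 14 against 9 in the main setting, was thus smaller in both. Shares of all genes in these settings are not given. The authors' own marks were an alternative chosen after seeing the data, and their smallest marked log2 fold change is 0.58 in size. By these marks BL-41 had 4 rises and 6 falls, Namalwa 0 and 0, and Jiyoye 0 and 9. With only genes of a mean of at least 100, BL-41 had 10 rises and 15 falls and Jiyoye 13 falls, and GINS4 in BL-41 (adjusted p = 0.0434) and POLA2 in Jiyoye (adjusted p = 0.0453) were among those added. Members that differed between BL-41 and Namalwa numbered 2 at an adjusted p under 0.01 and 1 (POLA2, adjusted p = 0.0476) with the SE enlarged by 25%. Between BL-41 and Jiyoye they numbered 0 in both of these settings, 3 among genes with a mean of at least 100, which adds POLE and RPA2, and 2 with centring, which adds POLE. Between Namalwa and Jiyoye they numbered 1 and 0 in the same 2 settings. No paired analysis was possible because the tables used here give 1 value per arm and none per library, and leaving out a library could not be run for the same reason. Stricter thresholds, a larger SE and fewer genes tested give these shifts by construction, and for centring the cause was not tested. A depth per library is unknown, so what depth limits cannot be given.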

Other observations

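Promoter words were set beside the calls as a description, with no test. CCAAT stood in a window of 9 of the 10 members that fell in Jiyoye and had a window (90%), in 15 of 31 that were not called there (48.4%) and in 1 of 2 that rose. In BL-41 it stood in 9 of 13 that fell (69.2%), in 14 of 22 not called (63.6%) and in 2 of 8 that rose. An E2F word stood in 8 of the 10 that fell in Jiyoye (80%) and 24 of 31 not called (77.4%), and in 11 of 13 that fell in BL-41 (84.6%), 17 of 22 not called (77.3%) and 5 of 8 that rose. Members that fell had more windows each, 22 windows for 13 genes in BL-41 and 18 for 10 in Jiyoye, than those not called, 27 for 22 and 38 for 31, and a share by gene counts a match in any window. By window, CCAAT stood in 59.1% for members that fell and 59.3% for those not called in BL-41, and in 77.8% and 42.1% in Jiyoye. The E2F order was the other way round by window, with 54.5% for members that fell and 70.4% for those not called in BL-41, and 55.6% and 65.8% in Jiyoye. No window was found for 6 members, so these shares leave them out. POLD3 and GINS4, which fell in Jiyoye, are among them. The forkhead word GTAAACA stood only in windows of MCM7 among the members with a window.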
